A study of Rattus norvegicus with 40 samples.

Results

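The ligands and receptors that steer growing axons, with the proteins that carry their signals inside the cell, were followed in rat dorsal root ganglia (DRGs), the clusters of sensory nerve cell bodies beside the spinal cord. The list held 52 genes, and 49 of them had at least 1 probeset on the array that was assigned to that gene alone, out of 14217 genes with such a probeset. The 49 genes had 95 probesets, and each gene was represented by its brightest probeset over all 40 arrays. Sema7a, Ephb2 and Efnb2 were absent from the platform table and were not analysed here. The DRGs came from 5 male Sprague-Dawley rats with spinal nerve ligation (SNL) and 5 with sham surgery, taken 4 weeks after the operation. In SNL the left L5 spinal nerve is tied off, so the ipsilateral L5 DRG holds injured neurons, while the L4 DRG beside it keeps its nerve. Sham rats had the operation without the ligature. The L4 and L5 DRGs of both sides were measured on 1 array each, which gave 8 groups of 5 arrays. Each array measured a whole DRG of 1 rat, with its neurons, glia, vessels and connective tissue.

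Axons find their way by reading cues on other cells and in the tissue around them. Semaphorins bind plexins, with neuropilins as co-receptors for the secreted kinds. Slits bind Robo receptors, netrins bind Dcc and the Unc5 receptors, and the membrane-bound ephrins bind Eph receptor tyrosine kinases on neighbouring cells. Nogo (Rtn4) on myelin acts through the Nogo receptor Rtn4r. Collapsin response mediator proteins and small GTPases pass these signals to microtubules and actin. Many of these genes stay active in adult sensory neurons and are known for their part in axon regrowth after nerve injury.

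The values are MAS 5 signals on a linear scale, and differences are ipsilateral minus contralateral on the log2(signal + 16) scale, with standard errors, from limma. A gene was called when its adjusted p was under 0.05 after adjustment over all 31042 probesets. The offset of 16 understates the change of dim genes, and Sema3a, Robo1, Dcc and Unc5a were dim throughout, with group means no higher than 15.3. The median signal of an array ranged from 28.6 to 55.6 and lay above that of the other side on ipsilateral arrays in all 4 comparisons of sides, with gaps of 4.97 (SNL L4), 6.06 (SNL L5), 5.55 (sham L4) and 7.12 (sham L5). RNA degradation raises the signal of the 3′ GAPDH probeset relative to the 5′ one. On ipsilateral arrays this ratio exceeded the contralateral one by 0.95 (SNL L4), 0.64 (SNL L5) and 0.43 (sham L4) on the log2 scale, and the sides did not overlap (two-sided exact permutation test, p = 0.00794 in each, which 5 arrays a side cannot go below). At sham L5 the gap was 0.09 and the sides overlapped (exact permutation p = 0.175). The same ratio for beta-actin gave gaps of 1.14 in SNL L5, without overlap (exact permutation p = 0.00794), and of 0.77 (SNL L4), -0.21 (sham L4) and 0.22 (sham L5), with overlapping sides. On ipsilateral arrays the mean log2 signal of the spiked bacterial controls was higher by 0.51 (SNL L4), 1.14 (sham L4) and 1.26 (sham L5). In these comparisons the sides did not overlap (exact permutation p = 0.00794 in each). In SNL L5 that gap was 0.26 with overlapping sides (exact permutation p = 0.405). The part of these differences in the results was not tested.

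Axon guidance genes were called about as often as probesets in general. In SNL L5, 15 members were higher and 10 lower on the ligated side, 51% of the 49, against 47.2% of all probesets (30.3% higher and 16.8% lower). In SNL L4, 4 were higher and 6 lower, 20.4% against 19.1% (10.1% and 9.01%). In sham rats 8 were higher and 8 lower at L4, 32.7% against 27.1% (17.3% and 9.85%). At sham L5 12 were higher and 14 lower, 53.1% against 50.3% (31.1% and 19.3%). Over the brightest probesets of all genes, 21%, 54.5%, 26.5% and 49.6% were called in SNL L4, SNL L5, sham L4 and sham L5. The size of the differences was another matter. In SNL L5, 9 of the 49 members (18.4%) were called with a difference of at least 1 on the log2 scale, against 4.48% of all probesets and 5.79% of the brightest probesets of all genes. The members were chosen with earlier results of these data known. This share and the like shares below are therefore not read as a trait of guidance genes. No member reached that size in SNL L4, sham L4 or sham L5, where 0.812%, 0.573% and 2.48% of all probesets did. The median difference over the members was 0.02, 0.11, -0.00059 and 0.03 in SNL L4, SNL L5, sham L4 and sham L5, and 0.07, 0.12, 0.06 and 0.06 over all probesets.

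The split into higher and lower depended on how the arrays were scaled. With all arrays set to equal medians, the median difference of all probesets became -0.02 (SNL L4), 0.0039 (SNL L5), -0.07 (sham L4) and -0.11 (sham L5). The members called were then 1 higher and 9 lower in SNL L4, 11 and 16 in SNL L5, 6 and 16 in sham L4, and 7 and 26 in sham L5. With quantile normalization they were 2 and 7, 13 and 13, 5 and 4, and 9 and 14 in the same order. Small differences are therefore given as measured under the deposited scaling, and the genes whose direction turned under another scaling are named as such.

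**Figure D1:**
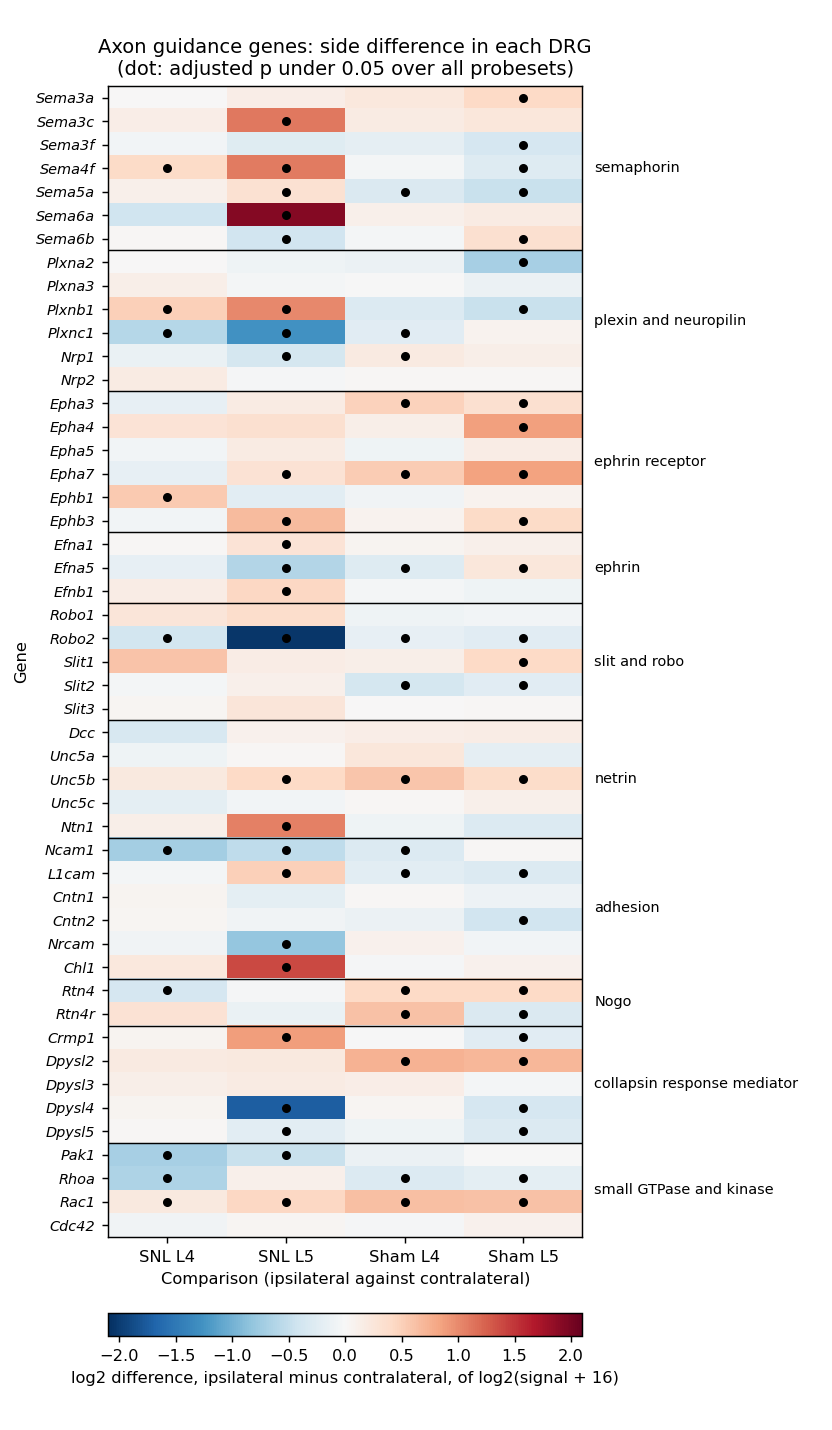
Difference between the ipsilateral and contralateral DRG for the 49 axon guidance genes (rows, grouped by family) in SNL L4, SNL L5, sham L4 and sham L5 (columns), on the log2(signal + 16) scale, with a dot where the adjusted p was under 0.05. The darkest cells are Robo2 (-2.04), Sema6a (1.92) and Dpysl4 (-1.73) in SNL L5, and the sham columns hold no difference of 1 or more.

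In the ligated L5 DRG the members with the largest differences came from several families. Robo2, a receptor for slits, fell 4.11-fold on the offset scale. Sema6a, a membrane-bound semaphorin that binds A-type plexins, rose 3.79-fold. Dpysl4, a collapsin response mediator protein, and Plxnc1, the plexin that binds Sema7a, fell. Chl1, an adhesion molecule related to L1, rose, as did the semaphorins Sema3c and Sema4f, netrin-1 (Ntn1) and Plxnb1. The other called members changed by less than 1 on the log2 scale.

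Robo2 had signals of 379, 345, 372, 357 and 373 on the contralateral arrays and of 62.1, 71.0, 89.0, 79.6 and 83.9 on the ipsilateral arrays, the rats being in the same order on both sides here and below. The highest ligated DRG lay far under the lowest contralateral one. The difference was -2.04 ± 0.07 (adjusted p = 5.09e-13). Of the other slit and Robo genes, Slit1, Slit2, Slit3 and Robo1 were not called, with differences of 0.15, 0.11, 0.26 and 0.37. The 2 dimmer probesets of Robo2 were also called lower, by smaller amounts of -0.55 and -0.44.

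Sema6a had signals of 92.6, 91.3, 106, 117 and 114 contralaterally and of 381, 518, 429.7, 443 and 425 on the ligated side. The sides were well apart, at a difference of 1.92 ± 0.08 (adjusted p = 3.06e-12). Of its 4 other probesets, 3 were called higher too, by 0.63 to 1.53, and the last differed by 0.36 (adjusted p = 0.0678).

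The promoters of the gene that fell most and the gene that rose most in the ligated DRG are shown because these 2 members moved furthest in opposite directions. The sequences are from RefSeq, build GRCr8, and run from 250 bases before to 50 bases after the annotated start of the gene. The Robo2 window is chr11:26526363-26526662 on the minus strand, and the Sema6a window is chr18:42358491-42358790 on the minus strand. Capitals would mark a match, on either strand, to 1 of 4 motifs: TGANTCA (AP-1), TGACGTCA (cAMP response element), TTCNNNGAA (STAT) and AACAAAG (Sox). Both are printed wholly in lower case, since neither held a match.
Robo2: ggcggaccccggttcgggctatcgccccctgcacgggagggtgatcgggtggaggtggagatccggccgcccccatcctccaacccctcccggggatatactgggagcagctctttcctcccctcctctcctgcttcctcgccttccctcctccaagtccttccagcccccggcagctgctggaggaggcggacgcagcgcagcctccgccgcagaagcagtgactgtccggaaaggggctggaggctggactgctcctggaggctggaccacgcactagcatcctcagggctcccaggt
Sema6a: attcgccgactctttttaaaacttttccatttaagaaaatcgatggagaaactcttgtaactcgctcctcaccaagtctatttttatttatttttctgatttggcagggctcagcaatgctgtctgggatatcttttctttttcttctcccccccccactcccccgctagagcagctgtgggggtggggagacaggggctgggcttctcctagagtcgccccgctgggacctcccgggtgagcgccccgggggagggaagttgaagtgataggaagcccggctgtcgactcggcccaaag
No motif lies within another. Of 33469 rat promoters of this length, 7.33% held the AP-1 letters, 1.83% the cAMP response element, 8.87% the STAT letters and 5.98% the Sox letters. Among the 9 members called with a difference of at least 1, promoters were found for 8, all but that of Ntn1. Of these only the Plxnb1 promoter held a match, to the Sox letters, and the other 3 motifs were in none of them. The absence of a match says only that these letters are not in this window. The motifs and the genes searched were chosen after the differences had been seen.

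Among the semaphorins, 4 of 7 measured members were higher and 1 was lower in the ligated DRG by brightest probeset. Of all probesets 30.3% were higher and 16.8% lower there. Sema3c, a secreted semaphorin that acts through neuropilins and plexins, had signals of 659.8, 624, 653, 635 and 634 contralaterally and of 1437, 1556, 1357, 1318 and 1378 ipsilaterally. All 5 ligated DRGs lay above all 5 of the other side, and the difference was 1.11 ± 0.05 (adjusted p = 1.29e-11). Sema4f, a membrane-bound semaphorin, had signals of 104, 119, 110.5, 117 and 102 and of 284, 250.1, 219, 246 and 265 on the contralateral and ipsilateral side. Its sides did not overlap either, at a difference of 1.08 ± 0.07 (adjusted p = 9.06e-10). Sema5a was higher by its brightest probeset, from 281 ± 12.4 to 355 ± 12.4 (SD, n = 5), a difference of 0.32 ± 0.05. Of the 3 other Sema5a probesets, 1 was called higher (0.36) and 1 lower (-0.41). The call was lost with the mean over all its probesets (0.058), so no direction is given for the gene. Sema6b differed by -0.40 ± 0.11 with overlapping sides (adjusted p = 0.00680). Sema3a and Sema3f, both secreted and both dim, were not called (0.14 and -0.25).

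Their receptors moved in both directions. Plxnc1 had signals of 441, 427, 422, 442 and 457 contralaterally and of 154, 156, 174, 195 and 180.2 in the ligated DRGs. Every ipsilateral value lay below every contralateral value, and the difference was -1.28 ± 0.06 (adjusted p = 2.47e-11). The contralateral L5 level of sham rats was lower than that of SNL rats, at 306 ± 19.5 against 438 ± 13.6 (SD, n = 5), a difference that was not tested. A dimmer Plxnc1 probeset differed by -0.23 and was not called. Plxnb1, a receptor for Sema4d, ranged from 41.9 to 72.8 contralaterally and from 107 to 135 ipsilaterally, at a difference of 1.01 ± 0.11 (adjusted p = 5.27e-07). Its 2 other probesets, with group means of at most 13.4, were not called. Nrp1, the neuropilin bound by Sema3a, fell from 334 ± 35.2 to 255 ± 33.2 (SD, n = 5), a difference of -0.37 ± 0.09. Its other, dimmer probeset differed by 0.03 and was not called, and the call was lost with the mean over both (-0.17). Nrp2, Plxna2 and Plxna3 were not called, with differences of -0.02, -0.09 and -0.04.

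Netrin-1 was the member of its family with the widest gap. Ntn1 had signals of 15.6, 15.5, 18.4, 21.9 and 9.44 contralaterally and of 66.2, 36.6, 63.98, 69.4 and 27.8 ipsilaterally. The ligated DRGs varied more among themselves than those of the other side, but the lowest of them lay above the highest contralateral value, at a difference of 1.06 ± 0.18 (adjusted p = 8.96e-05). The contralateral level itself was 16.2 ± 4.60 in SNL and 27.0 ± 7.31 in sham rats at L5 (SD, n = 5). The 2 other Ntn1 probesets, with group means of at most 7.01, were not called. Unc5b, a netrin receptor, differed by 0.42 ± 0.14 with overlapping sides. Dcc, Unc5a and Unc5c were not called, at 0.10, 0.03 and -0.06.

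The adhesion molecules split evenly, with 2 of 6 higher and 2 lower. Chl1 had signals of 85.6, 99.98, 84.8, 94.1 and 83.0 contralaterally and of 235, 261, 273, 286 and 245 in the ligated DRGs. Every ligated DRG exceeded every contralateral one by a wide margin, at a difference of 1.39 ± 0.07 (adjusted p = 2.72e-11). L1cam, its relative on axons, rose from 521 ± 36.9 to 748 ± 54.8 (SD, n = 5), a difference of 0.51 ± 0.06. Nrcam, another molecule of the L1 family, fell from 347 ± 21.5 to 192 ± 18.9 (SD, n = 5), a difference of -0.81 ± 0.07. Ncam1, the neural cell adhesion molecule, fell by its brightest probeset (-0.54 ± 0.09), while another of its probesets was called higher (0.48), so no direction is given for the gene. The contactins Cntn1 and Cntn2 were not called (-0.21 and -0.08).

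Of the collapsin response mediators, which relay semaphorin signals to the cytoskeleton, 1 was higher and 2 were lower. Dpysl4 had signals of 129.7, 154, 132, 114 and 122 contralaterally and of 27.9, 26.4, 21.9, 32.4 and 31.7 ipsilaterally. All ligated DRGs lay far below all contralateral ones, and the difference was -1.73 ± 0.09 (adjusted p = 1.08e-10). Crmp1 went the other way, from 169 ± 21.3 to 325 ± 31.3 (SD, n = 5), a difference of 0.88 ± 0.08 (adjusted p = 6.27e-08). Dpysl5 differed by -0.23 ± 0.07 with overlapping sides, and Dpysl2 and Dpysl3 were not called (0.21 and 0.18).

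All 3 measured ephrins were called by their brightest probesets in the ligated DRG, where 47.2% of all probesets were called. Their other probesets were not called (-0.28 for Efna5, 0.15 for Efnb1 and -0.37 for Efna1). Efna5, a ligand of A-type Eph receptors, fell from 211 ± 13.4 to 132 ± 10.2 (SD, n = 5), a difference of -0.62 ± 0.06. Efnb1, a transmembrane ligand of B-type receptors, rose by 0.44 ± 0.10, and Efna1 differed by 0.28 ± 0.10 with overlapping sides and by -0.045 as the mean over its probesets. Of the 6 Eph receptors, Ephb3 (0.67 ± 0.15) and Epha7 (0.31 ± 0.10) were called higher. The other Epha7 probeset differed by -0.046 and was not called. The Epha7 call was lost with the mean over its probesets and in the fit of all 8 groups. Epha3, Epha4, Epha5 and Ephb1 were not called, at 0.18, 0.34, 0.17 and -0.23. Neither Rtn4 (-0.02) nor its receptor Rtn4r (-0.14) was called by its brightest probeset.

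Among the signalling members, Pak1, a kinase switched on by Rac and Cdc42, fell from 408 ± 37.9 to 291 ± 16.8 (SD, n = 5), a difference of -0.46 ± 0.06, and its other probeset was called lower too (-0.36). Rac1 was higher by its brightest probeset (0.44 ± 0.07) and lower by its other one (-0.46), so no direction is given for it. Rhoa and Cdc42 were not called (0.11 and 0.03). Across the families, 21 of the 49 members had sides that did not overlap in SNL L5, against 33.9% of all probesets. The calls of Unc5b, Epha7 and Efna1 were lost under both other scalings, and that of Sema5a with equal medians. Those of Unc5b, Epha7 and Efna1 were also lost without the ipsilateral array of rat 48, that of Unc5b without the contralateral array of rat 18, those of Epha7 and Efna1 without the contralateral array of rat 4, and that of Efna1 without the contralateral array of rat 48, without the ipsilateral array of rat 4 and with rat as a block (adjusted p = 0.0578).

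**Figure D2:**
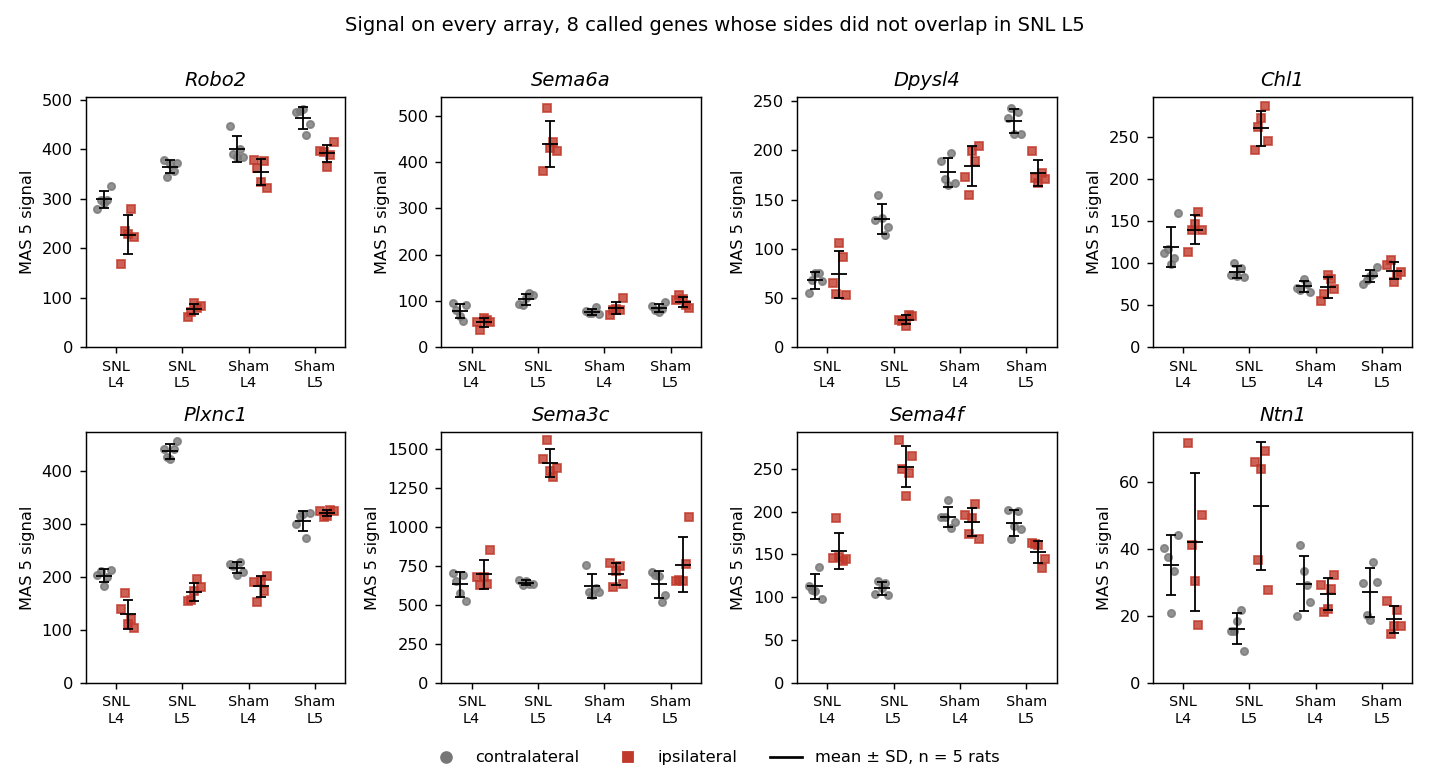
MAS 5 signal on each of the 40 arrays (points) for the 8 called members with the largest difference among those whose sides did not overlap in SNL L5, by cohort and segment (horizontal axis), with the mean and SD of each group of 5. In the SNL L5 columns the ipsilateral and contralateral points stand apart for every gene, as for Robo2 with 62.1 to 89.0 against 345 to 379, while in the sham columns no side difference of these genes reaches 1 on the log2 scale.

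Other genes of the guidance pathways, taken from lists of ligands, receptors and signalling proteins outside the 52, were counted beside them. Of 96 listed genes 82 were measured, and in SNL L5 34 were higher, 21 lower and 27 not called. The 67.1% called compares with 51% of the members, 47.2% of all probesets and 54.5% of the brightest probesets of all genes. The largest differences were those of Ntng1 (-1.86), which encodes netrin-G1, Cntn4 (-1.59), which encodes contactin-4, Rgs3 (-1.56), a regulator of G-protein signalling, and Sema4d (-1.29), the ligand of Plxnb1. Ntng1 went from a mean signal of 339 contralaterally to 82.6 ipsilaterally, and Sema4d from 48.9 to 10.4.

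Marker genes of other cell types differed between the sides on the same arrays. Of 8 macrophage genes 6 were higher and none lower, and their summed signal was 1059.9 to 1176 ipsilaterally and 375 to 410.3 contralaterally. All 6 fibroblast genes were higher, at summed signals of 9668 to 11085 against 3378 to 3635. Of 11 neuronal genes 2 were higher and 8 lower, at 14347 to 16366 against 17413 to 21307. Schwann cell genes were higher in 5 of 6 and lower in none. Endothelial genes were higher in 4 of 6 and lower in 1. Satellite glia genes were higher in 3 of 6 and lower in 1, with overlapping sums. Blood genes were lower in 5 of 6, and skeletal muscle genes were higher in 1 and lower in 5 of 6, at 1305 to 1448 against 3346 to 3968. The muscle genes Ckm and Mb had mean signals of 6.11 and 6.17 on the ligated side and of 283 and 252 on the other. Uchl1, a marker of DRG neurons, was well detected, at mean signals of 2731 and 2886. The median difference over the 11 neuronal genes was -0.68. The part of these differences in the results for the members was not tested, and in whole ganglia fewer cells of a type cannot be told apart from less RNA per cell.

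**Figure D3:**
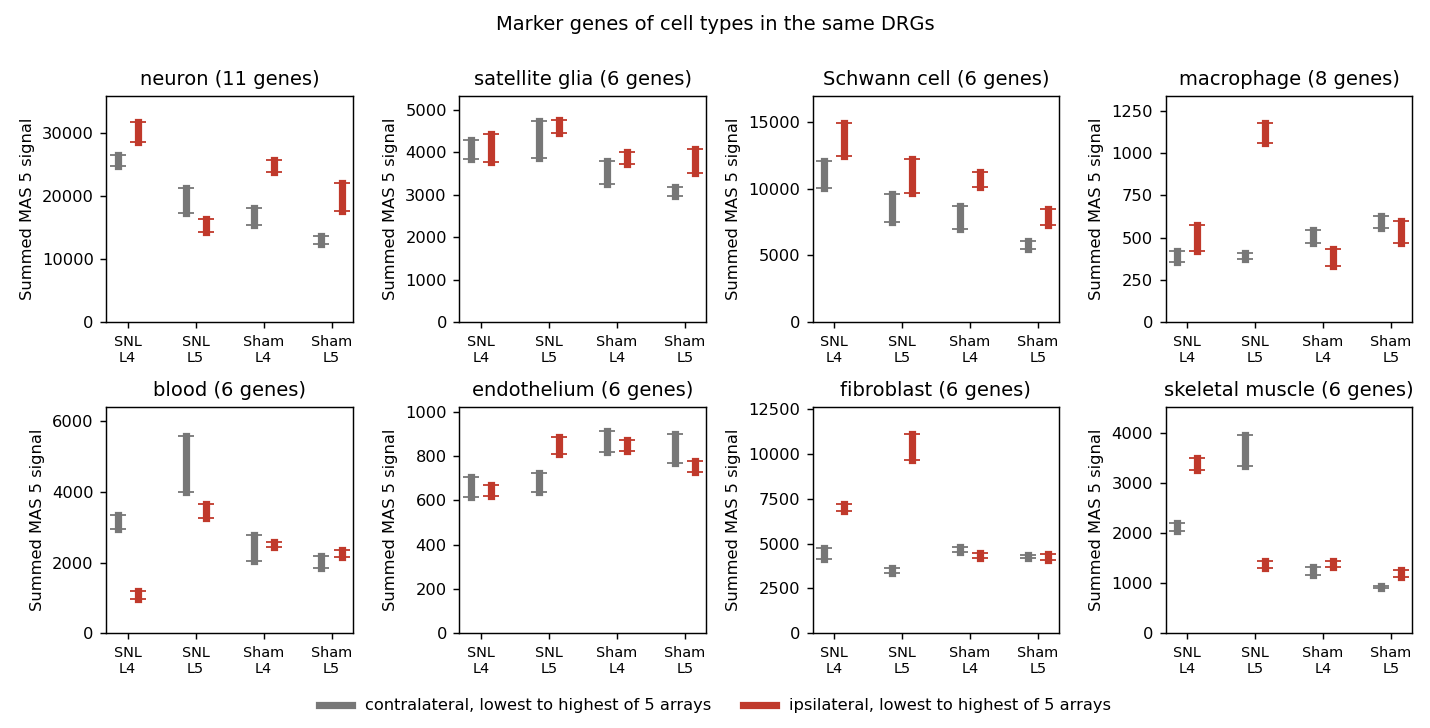
Summed MAS 5 signal of marker genes of 8 cell types (panels) in each comparison, with bars from the lowest to the highest of the 5 arrays of a side. Macrophage and fibroblast sums are highest in ipsilateral SNL L5 (1059.9 to 1176 and 9668 to 11085), and the neuronal sum is lower there than on the other side.

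Beside the ligated segment, in the L4 DRG, the differences were smaller and most of the called members were lower by brightest probeset. By that probeset Ncam1, Pak1, Rhoa, Plxnc1, Robo2 and Rtn4 were lower, and Plxnb1, Sema4f, Ephb1 and Rac1 were higher. Another probeset was called the opposite way for Ncam1 (0.39) and for Rac1 (-0.42), so no direction is given for these genes. No call was made for a netrin, an ephrin or a collapsin response mediator. In 9 of the 49 members the sides did not overlap, against 15% of all probesets. The calls of Ephb1 and Rac1 were lost under quantile normalization and with equal medians, and that of Sema4f with equal medians. Those of Plxnc1 and Robo2 were lost with the mean over their probesets (-0.29 and -0.25). The call of Ephb1 was lost without rat 9 on the contralateral side and without rat 4 on the ipsilateral side, and that of Rac1 without rat 18 on the contralateral side and without rat 8 on the ipsilateral side.

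Pak1 had signals of 529, 537, 524, 523 and 557 on the contralateral and of 304, 323, 299.7, 332 and 366 on the ipsilateral arrays. The sides lay far apart and the difference was -0.69 ± 0.06 (adjusted p = 5.83e-07), with the other Pak1 probeset also lower (-0.68). Rhoa, the GTPase that drives growth cone collapse, had signals of 331, 342, 373, 376 and 368 contralaterally and of 164, 232, 243, 248 and 237 ipsilaterally. Rat 4 had the lowest ipsilateral value, and the other 4 rats too lay below all contralateral values, at a difference of -0.65 ± 0.09 (adjusted p = 8.37e-05). Its other probeset was lower by more (-0.93).

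Rtn4 had signals of 2154, 2114, 1929, 2084 and 2377 contralaterally and of 1574, 1676, 1638, 1780.0 and 1678 ipsilaterally. The sides did not overlap, at a difference of -0.35 ± 0.06 (adjusted p = 3.26e-04), and the other Rtn4 probeset was lower too (-1.66). Robo2 had signals of 279, 298, 292, 299 and 326 and of 169, 235, 229.8, 279 and 224. The highest ipsilateral value came close to the lowest contralateral one without reaching it, and the difference was -0.39 ± 0.10 (adjusted p = 0.00964). Its 2 other probesets were not called.

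Plxnc1 had signals of 203, 212, 184, 199 and 214 contralaterally and of 139.6, 170.3, 112, 120.1 and 103 ipsilaterally. All ipsilateral values were lower, at a difference of -0.61 ± 0.11 (adjusted p = 6.21e-04), and its other probeset differed by 0.03. Ncam1 had signals of 232, 245, 235, 207 and 196 and of 154, 106, 141, 134 and 121 for a difference of -0.71 ± 0.10 (adjusted p = 4.66e-05). Another Ncam1 probeset was called higher (0.39), so this fall holds for 1 probeset and not for the gene.

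Of the members that were higher, Plxnb1 had signals of 49.9, 52.3, 46.5, 52.7 and 71.8 contralaterally and of 94.9, 75.2, 84.4, 92.9 and 73.4 ipsilaterally. Rat 48 stood above the other contralateral arrays and close to the lowest ipsilateral one, and the difference was 0.51 ± 0.13 (adjusted p = 0.00961). Sema4f had signals of 114, 109, 108, 136 and 97.3 and of 145, 192, 147, 142 and 144. Rat 8 was well above the others ipsilaterally, and the sides did not overlap, at a difference of 0.40 ± 0.10 (adjusted p = 0.0108). Ephb1, a receptor for B-type ephrins, differed by 0.54 ± 0.16 with overlapping sides. Rac1 differed by 0.20 ± 0.06 by its brightest probeset and by -0.42 by its other one, which was also called.

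**Figure D4:**
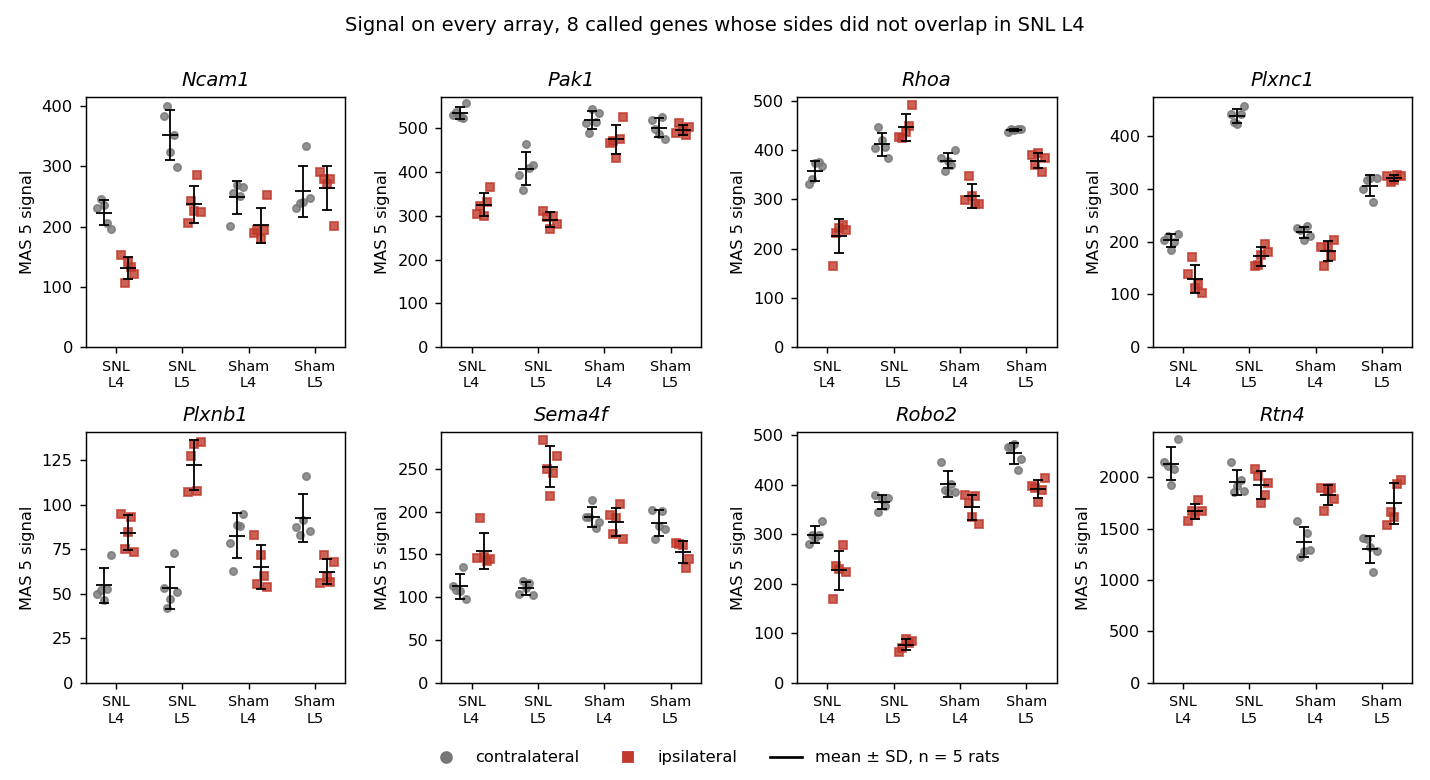
MAS 5 signal on each of the 40 arrays (points) for the 8 called members with the largest difference among those whose sides did not overlap in SNL L4, by cohort and segment (horizontal axis), with the mean and SD of each group of 5. Pak1 and Rhoa are lower ipsilaterally in SNL L4 (299.7 to 366 against 523 to 557 for Pak1), and Plxnc1 and Robo2 are lower in both segments of SNL rats. Robo2 and Rhoa were also called lower in both sham segments, and Plxnc1 at sham L4. The Robo2 difference at L4 was not called as different from sham.

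Of the other guidance genes 16 were higher, 13 lower and 53 not called in SNL L4, so that 35.4% were called, against 20.4% of the members, 19.1% of all probesets and 21% of the brightest. The largest differences were those of Cntn4 (-0.84), Abl1 (0.76), a tyrosine kinase of growth cone signalling, Ntng1 (-0.69) and Plxnb2 (0.62), another B-type plexin. In these arrays 5 of 6 fibroblast genes were higher and none lower, blood genes were lower in 4 of 6 and neuronal genes were higher in 5 and lower in 2 of 11. Schwann cell genes were higher in 3 of 6, macrophage genes in 2 of 8 and skeletal muscle genes in 2 of 6, and none of these was lower. Endothelial genes were higher in 1 of 6, and satellite glia genes were higher in 1 and lower in 1 of 6. The part of these in the results was not tested.

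Sham rats had side differences of their own, the largest of them smaller than the largest of the ligated DRG. By the brightest probesets the largest at L4 were rises. Dpysl2, a collapsin response mediator, had signals of 1735, 2177, 1805, 1837 and 1864 contralaterally and of 2986, 3057, 3352, 3028 and 3214 ipsilaterally. All ipsilateral values were above all contralateral ones, at a difference of 0.73 ± 0.06 (adjusted p = 5.10e-07). Under the other settings and with single arrays left out, this difference ranged from 0.23 to 0.78 and stayed called. Rac1 had signals of 1465, 1565, 1530.4, 1574 and 1647 and of 2400.3, 2248, 2564, 2458 and 2367. Its sides were also apart (0.62 ± 0.05), but its other probeset was called lower (-0.36). Rtn4r had signals of 21.4, 20.9, 18.6, 14.7 and 9.14 and of 38.5, 31.7, 25.8, 37.0 and 36.5, without overlap, at a difference of 0.61 ± 0.13. Rtn4 had signals of 1577, 1223, 1282, 1459 and 1294 and of 1893, 1676, 1882, 1895 and 1791 (0.42 ± 0.07), and its other probeset was lower (-0.38). Both Nogo members were thus higher by their brightest probesets, and for Rtn4 the probesets disagreed.

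Epha3, a receptor for A-type ephrins, was dim at sham L4, with signals of 5.10, 5.93, 4.41, 6.86 and 4.19 contralaterally and of 16.02, 12.0, 18.8, 6.96 and 16.6 ipsilaterally (0.48 ± 0.12). Slit2, a secreted repellent, had signals of 176, 161, 163, 162 and 163 and of 133, 130.2, 120.1, 135 and 106. It was lower on every ipsilateral array (-0.36 ± 0.07), with another of its probesets called higher (0.42). Sema5a had signals of 476, 442, 477, 466 and 433 and of 389, 367, 355, 380.3 and 361, without overlap (-0.30 ± 0.05), but the mean over its probesets differed by 0.0065. Rhoa had signals of 384, 358, 378, 369.9 and 399 and of 299, 348, 307, 290.3 and 290.3, also without overlap (-0.29 ± 0.06), and its other probeset was lower too (-0.72). The remaining calls at sham L4 were Unc5b (0.59), Epha7 (0.53), Ncam1 (-0.28), Efna5 (-0.27), Plxnc1 (-0.24), L1cam (-0.23), Robo2 (-0.17) and Nrp1 (0.18). Nrp1 turned to -0.041 when arrays were scaled to equal medians. Another Ncam1 probeset was called higher (0.594), so no direction is given for that gene. The other probesets of Unc5b, Epha7, Efna5, Plxnc1, Robo2 and Nrp1 were not called, with 0.24 for Efna5 and -0.27 for Nrp1. In 11 of the 49 members the sides did not overlap, against 18.2% of all probesets. With quantile normalization the calls of Unc5b, Epha7, Epha3, Rtn4, Ncam1, Efna5, Plxnc1 and Robo2 were lost, and with equal medians that of Rtn4. Leaving out 1 array ended the calls of Ncam1, Nrp1 and Robo2 in 8 of 10 cases each, and that of Plxnc1 without the contralateral array of rat 22. Neuronal genes were higher in 8 of 11 and lower in none, with summed signals of 23912 to 25751 ipsilaterally and 15375 to 18081 contralaterally. Macrophage genes were lower in 2 of 8 and fibroblast genes in 2 of 6 on the same arrays, Schwann cell genes were higher in 3 and lower in 1 of 6, and of the 6 measured genes each for satellite glia, blood, endothelium and skeletal muscle 1 or 2 were called. The part of these in the results was not tested.

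At sham L5 the Eph receptors led. Epha4, a receptor for both classes of ephrin, had signals of 14.6, 16.7, 17.95, 20.9 and 18.9 contralaterally and of 50.4, 43.6, 39.5, 45.1 and 48.1 ipsilaterally. All ipsilateral values lay above all contralateral ones, at a difference of 0.86 ± 0.08 (adjusted p = 8.59e-07), and 2 of its 3 other probesets were called higher (0.57 and 0.54). Epha7 had signals of 13.1, 13.3, 15.5, 14.8 and 16.02 and of 32.7, 46.5, 50.7, 32.4 and 34.2, also apart (0.84 ± 0.10). Epha3 (0.34) and Ephb3 (0.41) were called higher too, which made 4 of the 6 measured Eph receptors, against 31.1% of all probesets. Epha5 (0.15) and Ephb1 (0.07) were not called. Epha3 was dim, with signals of at most 9.91, and its call was lost with the mean over its probesets (0.097). The other probesets of Epha3 (-0.20 and 0.15) and of Epha7 (0.18) were not called.

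Dpysl2 had signals of 1499, 1560.0, 1503, 1542 and 1346 and of 2128, 2120.2, 2263, 2952 and 2817 at sham L5. It was higher ipsilaterally without overlap (0.70 ± 0.09). Under the other settings and with single arrays left out, the Dpysl2 difference ranged from 0.11 to 0.75 and stayed called. The 3 other called members of its family, Dpysl4 (-0.35), Dpysl5 (-0.28) and Crmp1 (-0.24), were lower. Plxna2, a receptor of class 3 and class 6 semaphorins, had signals of 209.9, 234, 248, 190.2 and 205 and of 137, 144, 153, 104 and 107, lower on all ipsilateral arrays (-0.69 ± 0.10). Sema5a had signals of 433, 382, 411, 380.2 and 387 and of 274, 282, 284, 288 and 285, at a difference of -0.47 and without overlap. Plxnb1 had signals of 87.5, 83.2, 91.5, 116 and 84.9 and of 56.1, 71.5, 59.4, 56.7 and 68.0, at a difference of -0.47, which is opposite in sign to both SNL segments.

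Rac1 had signals of 1236, 1259, 1157, 1246 and 1149 contralaterally and of 1771, 1635, 1721, 2218 and 2008 ipsilaterally at sham L5 (0.61 ± 0.07), with its other probeset lower (-0.26). Rtn4 had signals of 1412, 1398, 1325, 1079.6 and 1279.8 and of 1536, 1664, 1618, 1936 and 1978 (0.42 ± 0.08), a difference that became -0.033 with quantile normalization. The other called members were Sema3a (0.42), Slit1 (0.42), Unc5b (0.38), Sema6b (0.33) and Efna5 (0.24, but -0.049 with equal medians), which were higher, and Cntn2 (-0.41), Sema3f (-0.36), Rtn4r (-0.30), L1cam (-0.29), Sema4f (-0.26), Slit2 (-0.23), Robo2 (-0.23) and Rhoa (-0.21), which were lower. Both other Slit2 probesets were called higher (0.57 and 0.34), as was another Rtn4r probeset (0.40). As the mean over their probesets, Slit2 and Rtn4r were 0.23 and 0.085 at sham L5, so no direction is given for these genes. In 21 of the 49 members the sides did not overlap, against 34.2% of all probesets. With quantile normalization the calls of Sema3a, Slit1, Ephb3, Unc5b, Epha3, Sema6b, Dpysl5, Sema4f, Crmp1 and Slit2 were lost, and with equal medians those of Rtn4, Ephb3, Unc5b and Sema6b. Neuronal genes were higher in 7 and lower in 1 of 11, and macrophage genes were higher in 2 and lower in 5 of 8. Blood genes were higher in 5 and lower in 1 of 6, Schwann cell genes higher in 3 and lower in 3, satellite glia genes higher in 3 and lower in 2, skeletal muscle genes higher in 3, fibroblast genes lower in 3, and endothelial genes higher in 1 and lower in 2. Their part in the results was not tested.

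Of the 82 other guidance genes 11 were higher and 13 lower at sham L4, 29.3% against 27.1% of all probesets, led by Draxin (0.95), a secreted repellent, Rasa1 (-0.57), a Ras GTPase-activating protein, Cdon (0.57) and Nck2 (-0.52), an adaptor protein. At sham L5 19 were higher and 21 lower, 48.8% against 50.3% of all probesets, led by Wnt5a (0.89), Dock3 (-0.78), Draxin (0.74) and Met (0.68), the receptor of hepatocyte growth factor.

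Whether the side difference of SNL rats exceeded that of sham rats was tested as an interaction of side and cohort. At L5, 13 members were called above and 13 below sham, 53.1% of the 49 against 43.2% of all probesets (20.9% above and 22.3% below). The difference was at least 1 for 9 of the members called, against 6.65% of all probesets. Robo2 differed by -1.81 ± 0.09 (95% confidence interval -1.99 to -1.62), from -2.04 in SNL and -0.23 in sham rats. Sema6a differed by 1.74 ± 0.12, from 1.92 and 0.18, and Dpysl4 by -1.38 ± 0.11, from -1.73 and -0.35. Plxnb1 (1.47 ± 0.14) and Sema4f (1.35 ± 0.10) moved in opposite directions in the 2 cohorts, with 1.01 and -0.47 for Plxnb1 and 1.08 and -0.26 for Sema4f. Their contralateral L5 levels also differed between the cohorts, which was not tested. For Plxnb1 they were 53.3 ± 11.8 in SNL and 92.6 ± 13.4 in sham rats (SD, n = 5). For Sema4f they were 110 ± 7.38 and 187 ± 14.6. The 10 arrays of SNL L5 carry another prefix in their titles than the other 30, and what the prefix marks is not stated. Whatever it marks and the cohort cannot be told apart at L5 beyond what cancels between the sides.

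At L4, 4 members were called above and 9 below sham, 26.5% against 14% of all probesets (5.72% above and 8.28% below). Plxnb1 differed by 0.80 ± 0.17, from 0.51 in SNL and -0.29 in sham rats. Its contralateral L4 level was 54.6 ± 9.90 in SNL and 82.5 ± 12.5 in sham rats (SD, n = 5). Rtn4 differed by -0.77 ± 0.09, from -0.35 and 0.42. Its contralateral L4 level was 2132 ± 162 in SNL and 1367 ± 147 in sham rats (SD, n = 5). Its ipsilateral level was 1669 ± 74.7 and 1827 ± 94.7 in the same order. The other Rtn4 probeset was lower in both cohorts (-1.66 and -0.38). Pak1 differed by -0.57 ± 0.08, from -0.69 and -0.13. Epha3 (-0.65 ± 0.19) and Ephb1 (0.62 ± 0.21) were also called. The contralateral L4 mean of Epha3 was 45.9 in SNL and 5.30 in sham rats. The call for Epha3 was lost with rat as a block (adjusted p = 0.0502) and with the mean over its probesets (-0.23), and its 2 other probesets were not called at L4 in either cohort. The call for Ephb1 was lost when any 1 of 13 of the 20 arrays was left out. The fall of Robo2 at L4 was not called as different from sham (-0.21 ± 0.12, 95% confidence interval -0.46 to 0.03).

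**Figure D5:**
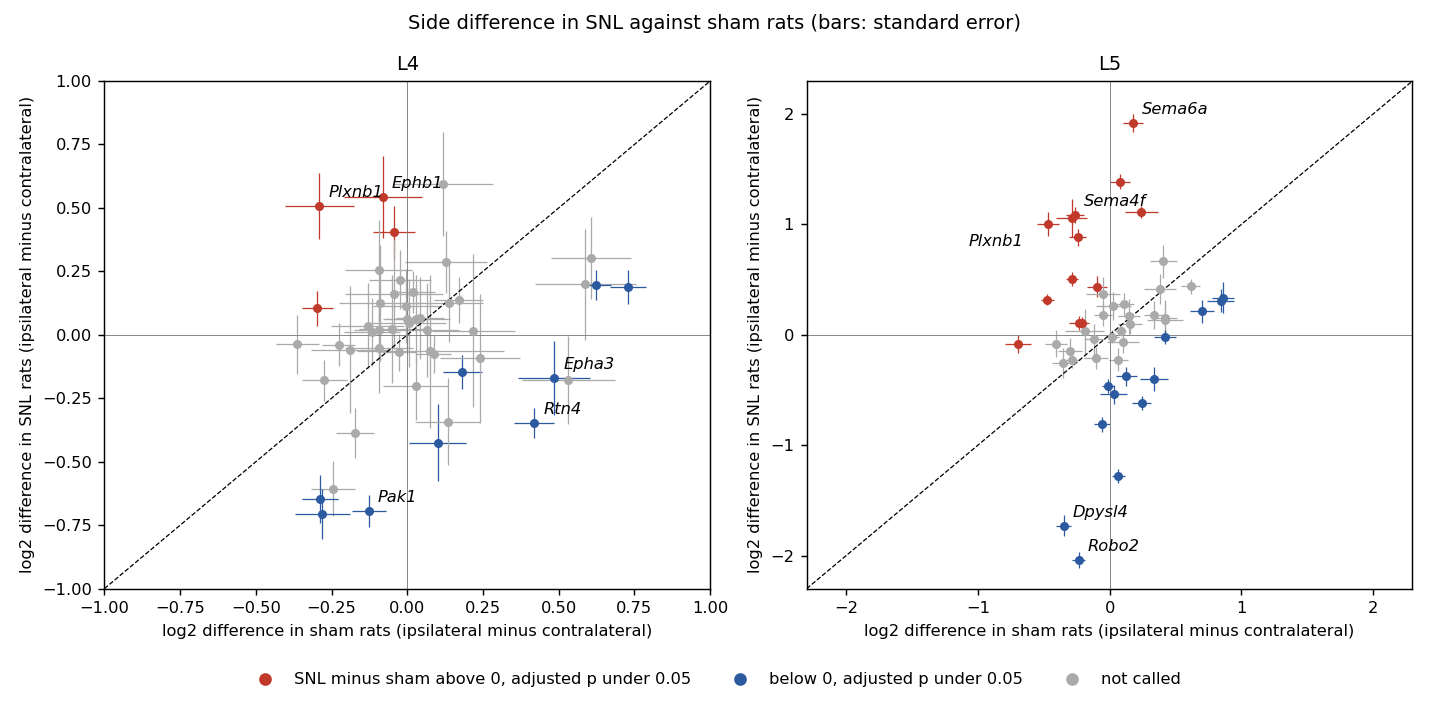
Side difference of each of the 49 members in SNL rats (vertical axis) against sham rats (horizontal axis) at L4 (left) and L5 (right), on the log2(signal + 16) scale with standard errors; colour marks members whose 2 differences differed at an adjusted p under 0.05, and the dashed line marks equal differences. Sema6a and Robo2 lie farthest from that line at L5 (1.74 above and 1.81 below), and Plxnb1 lies above it in both segments.

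Within SNL rats the side difference of L5 was compared with that of L4, and 10 members were called above and 6 below, 32.7% against 19.2% of all probesets (11.1% above and 8.08% below). The largest were Sema6a (2.35 ± 0.16), Dpysl4 (-1.79 ± 0.19), Robo2 (-1.65 ± 0.13), Chl1 (1.17 ± 0.14) and Sema3c (0.98 ± 0.11). Of these, Sema6a, Dpysl4, Chl1 and Sema3c were not called in SNL L4. Their differences there were -0.42, 0.07, 0.22 and 0.14. The arrays of the 2 segments differ in that title prefix too, so segment and prefix cannot be told apart beyond what cancels between the sides.

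Away from the operated side, the L5 and L4 DRGs of sham rats differed in 8 members that were higher and 7 that were lower at L5, 30.6% against 25.1% of all probesets (9.76% higher and 15.3% lower). The segments did not overlap in 11 members, against 16.4% of all probesets. The largest were Epha4 (-0.52 ± 0.09), Dpysl3 (0.48 ± 0.09), Sema6b (-0.46 ± 0.09), Plxnc1 (0.46 ± 0.06) and Rtn4r (0.37 ± 0.12). The call of Rtn4r was lost when any 1 of 5 of the 10 arrays was left out. Between the same arrays the 3′ to 5′ ratio differed by -0.28 for GAPDH and -0.59 for beta-actin, the median signal by -2.68 and the mean log2 signal of the spiked bacterial controls by -0.67, each without overlap (exact permutation p = 0.00794). The part of these in the results was not tested.

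The contralateral L4 DRGs themselves differed between SNL and sham rats. Of the members 14 were higher and 13 lower in SNL rats, 55.1% against 63.8% of all probesets (44% higher and 19.9% lower). The cohorts did not overlap in 21 members, against 46.9% of all probesets, and the median difference of all probesets was 0.22. The largest were Epha3 (1.53 ± 0.11), Epha7 (1.43 ± 0.14), Dpysl4 (-1.21 ± 0.09), Dpysl2 (1.12 ± 0.07) and Epha4 (1.11 ± 0.12). Epha3, for one, had signals of 35.6 to 52.0 in contralateral L4 of SNL and 4.19 to 6.86 of sham rats. The median signal of these arrays was 49.4 in SNL and 31.7 in sham rats, the log2 3′ to 5′ ratio of beta-actin 4.02 and 4.79, and the mean log2 signal of the spiked bacterial controls 11.1 and 9.30, each without overlap (exact permutation p = 0.00794). The GAPDH ratios overlapped, at 1.40 and 1.29. These arrays also form the contralateral side of the L4 comparisons above, and the part of these measures in the difference was not tested.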

How the data were processed

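Total RNA of single whole DRGs was labelled with biotin and hybridised to Affymetrix Rat230_2 arrays, 1 array per DRG. The authors deposited MAS 5 signal intensity per probeset on a linear scale, with a trimmed mean of 99.99 on every array. The sources used here do not give the version of MAS 5. The number of arrays limits the precision.

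Signals were taken as log2(signal + 16). After 57 control probesets were left out, 31042 were tested with limma 3.58.1 (R 4.3.3, empirical Bayes with trend) and adjusted by Benjamini-Hochberg. The 4 comparisons of sides were fitted on 10 arrays each and the differences between comparisons on 20. The study's methods name a t-test, which was run as an alternative. The same rat gave both sides, so rat numbers pair the arrays. Deviations from the group means of the 2 sides of a rat had correlations of -0.06 to 0.04 (SNL L5), -0.01 to 0.04 (SNL L4), -0.05 to 0.10 (sham L4) and -0.14 to 0.01 (sham L5), and the fit with rat as a block was an alternative. No 2 arrays were identical.

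Probesets were named from the platform annotation, by which 20826 of the tested probesets had 1 symbol, 436 several and 9780 none. Named probesets were those with 1 symbol. Per comparison of sides, the 8 called members with the largest difference and sides that did not overlap are given on every array. From the other guidance genes the 4 largest, and from the other comparisons the 5 largest called members, are given. The members and lists were chosen with earlier results of these data known. Lists of neuron, satellite glia, Schwann cell, macrophage, blood, endothelium, fibroblast and skeletal muscle genes were counted beside them. The scripts were tested on simulated data. Alternatives were other scalings, offsets, thresholds, probeset choices, 1 fit over the 8 groups together, and fits without each array in turn. Figures were drawn with matplotlib 3.10.9 in Python 3.11.15.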

Additional observations from a re-analysis of the deposited data

Results flagged for a closer look

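Among the members given on every array, 6 of 64 groups of 5 arrays held 1 array standing apart from the other 4 by Dixon's test, where chance gives about 1 in 20. Rhoa in ipsilateral SNL L4 was 164 in rat 4 and 232 to 248 in the others. Plxnb1 in contralateral SNL L4 was 71.8 in rat 48 and 46.5 to 52.7 in the others. Sema4f in ipsilateral SNL L4 was 192 in rat 8 and 142 to 147 in the others. Slit2 in contralateral sham L4 was 176 in rat 1 and 161 to 163 in the others. Dpysl2 in contralateral sham L5 was 1346 in rat 23 and 1499 to 1560.0 in the others. Plxnb1 in contralateral sham L5 was 116 in rat 22 and 83.2 to 91.5 in the others.

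The side difference of SNL rats differed from that of sham rats, by the interaction test, at L5 for Robo2 (-1.81), Sema6a (1.74), Plxnb1 (1.47), Dpysl4 (-1.38) and Sema4f (1.35), and at L4 for Plxnb1 (0.80), Rtn4 (-0.77), Epha3 (-0.65), Ephb1 (0.62) and Pak1 (-0.57). The side difference at L5 of SNL rats differed from that at L4 for Sema6a (2.35), Dpysl4 (-1.79), Robo2 (-1.65), Chl1 (1.17) and Sema3c (0.98). All are differences of log2 differences, from limma at an adjusted p under 0.05.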

How the results depend on the processing

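With rat as a replicate block, 11, 25, 17 and 27 members were called in SNL L4, SNL L5, sham L4 and sham L5, 17 in L5 minus L4 of SNL rats and 14 in sham contralateral L5 minus L4, all within 1.5 times the count without the block. For SNL minus sham, a block of rats nested in cohorts, added after seeing the data, gave 12 calls at L4 and 26 at L5, and the call of Epha3 at L4 was lost. Contralateral L4 between cohorts has 1 array per rat, so no block applies there. The 9 members of SNL L5 with a difference of at least 1 kept their direction under every alternative run. Counts of calls moved as follows. In SNL L4, calls were 16 (7 higher) in the fit of all 8 groups and 5 (0 higher) by the methods' t-test at p under 0.001. The higher calls there were 1 at an adjusted p under 0.01, 2 with quantile normalization, 1 with equal medians and 2 by the t-test after Benjamini-Hochberg, and the lower calls were 3 with the mean over probesets. In SNL L5, lower calls were 16 with equal medians. In sham L4, calls were 9 (5 higher, 4 lower) at an adjusted p under 0.01, 7 (4 and 3) with the mean over probesets, 9 (5 and 4) with quantile normalization and 6 (3 and 3) by the t-test at p under 0.001. Higher calls there were 5 without dim probesets and 5 by the t-test after Benjamini-Hochberg, and lower calls were 16 with equal medians. In sham L5, calls were 12 (5 and 7) by the t-test at p under 0.001, higher calls 7 without dim probesets, and 7 higher and 26 lower with equal medians. For SNL minus sham at L4, calls were 6 at an adjusted p under 0.01 and 7 with the mean over probesets. For sham contralateral L5 minus L4 they were 9 at an adjusted p under 0.01 and 6 by the t-test at p under 0.001, and for contralateral L4 between cohorts 16 by that t-test. Directions turned with the mean over probesets for Ncam1 (0.052 in SNL L4, 0.051 in SNL L5, 0.13 in sham L4), Rac1 (-0.11 in SNL L4, -0.0091 in SNL L5), Efna1 (-0.045 in SNL L5), Slit2 (0.020 in sham L4, 0.23 in sham L5), Sema5a (0.0065 in sham L4), Nrp1 (-0.045 in sham L4) and Rtn4r (0.085 in sham L5). They turned with equal medians for Nrp1 (-0.041 in sham L4) and Efna5 (-0.049 in sham L5), and with quantile normalization for Rtn4 (-0.033 in sham L5). The cause was not tested. Leaving out 1 array at a time gave 9 to 12 calls in SNL L4 (3 to 6 higher, 6 to 7 lower), 23 to 28 in SNL L5 (13 to 18, 10 to 11), 12 to 16 in sham L4 (7 to 9, 5 to 8) and 26 to 28 in sham L5 (12 to 13, 14 to 16). It gave 10 to 14 for SNL minus sham at L4, 26 to 29 at L5, 14 to 17 for L5 minus L4 of SNL rats, 13 to 17 for sham contralateral L5 minus L4 and 24 to 29 for contralateral L4 between cohorts. The lowest count of lower calls in sham L4, 5 against 8, came without the contralateral array of rat 22. The t-test was not run for the differences between comparisons. Dim probesets, at or below the offset, limit what can be measured for Sema3a, Robo1, Dcc and Unc5a.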

Other observations

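Some members whose brightest probeset was not called in SNL L5 had a dimmer probeset that was. The other probeset of Rtn4, which encodes Nogo, was lower on the ligated side (-0.60, mean signals of 444 and 681). Both other probesets of its receptor Rtn4r were lower (-0.45 and -0.39), at mean signals of at most 12.8. A second probeset was higher for Epha4 (0.38, 74.2 against 53.1) and for Slit2 (0.66, 97.5 against 55.5), and lower for Rhoa (-0.27, 143 against 176). Of the 25 members called in SNL L5, 16 had further probesets. In 5 of these another probeset was called the same way and in 3 another was called the opposite way, Sema5a counting under both. In 9 no other probeset was called. In SNL L4 the same counts were 4, 2 and 2 of 8 called members with further probesets. They were 1, 4 and 9 of 14 in sham L4, and 6, 3 and 6 of 15 in sham L5.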
